A study of Mus musculus with 18 samples.

Results

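The enzymes that build ceramide and sphingomyelin, and those that phosphorylate ceramide and sphingosine, were followed in the ventral dentate granule cell layer of adult male mice. The group held 10 genes, chosen by symbol from the 34620 genes listed in the count files: Sptlc1, Sptlc2, Degs1, Degs2, Sgms1, Sgms2, Cerk, Sphk1, Sphk2 and Sgpl1. All 10 were found and all 10 passed the filter on low counts, which left 17421 genes for testing. The rule names genes by symbol alone, but the list was drawn up with earlier results of these data known.

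RNA-Seq was done on 6 libraries, 2 each of WT, F1 and F2, from Swiss Webster mice aged 8 to 12 weeks. WT males came from WT mothers and grandmothers of a lineage bred in parallel. F1 males were genetically WT sons of 5HT1A-/+ mothers, which lacked 1 copy of the serotonin 1A receptor gene, with 5HT1A-/+ given as the grandmothers' genotype too. F2 males had a WT mother and a 5HT1A-/+ grandmother, and were bred from F1 females and WT males. All the animals analysed were therefore WT themselves. The layer was microdissected from frozen sections, so each library is a bulk sample in which fewer cells of a type and less RNA per cell cannot be told apart. The offspring came from at least 3 litters, per the study's methods. How many animals each library pools, and whether replicate libraries came from separate animals or litters, is not given in the sources used here, so the p-values measure the spread between libraries, which may be technical.

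Sphingolipid synthesis starts when serine palmitoyltransferase joins serine to a fatty acyl-CoA. The product is reduced, acylated by ceramide synthases to dihydroceramide, and desaturated to ceramide, the branch point of the pathway. Ceramide can then be turned into sphingomyelin, glycosylated, phosphorylated or cut to sphingosine, and sphingosine 1-phosphate acts as a signal through its own receptors before a lyase destroys it. In brain, sphingomyelin is a membrane lipid of neurons, and hydroxylated, glycosylated ceramides are characteristic of myelin.

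Each library had between 26358165 and 33727936 reads assigned to genes. Reads that mapped uniquely but to no annotated exon took 17.7% and 20.7% of the unique reads in WT, 13.8% and 12.2% in F1, and 13.9% and 17.4% in F2, so this share was lower in every F1 and F2 library than in WT. Htr1a, the receptor gene deleted in the maternal line, stood at 62.2 and 55.7 CPM (reads scaled to library size) in WT, 49.3 and 55.1 in F1, and 68.6 and 66.6 in F2, and was not called in either comparison (edgeR adjusted p = 0.332 and 0.266). It does not check the groups, since all the animals carry it. The 6 granule cell markers, Prox1 and Calb1 among them, summed to 875 to 882 CPM in WT, 766 to 952 in F1 and 1048 to 1114 in F2. Among the 5 choroid plexus markers, Folr1 and Clic6 stayed under 1 CPM in every library, Ttr and Otx2 reached at most 1.10 and 1.23 CPM, and Kl ran from 13.6 to 18.7 CPM. Their sum was 14.9 to 15.7 CPM in WT, 15 to 18 in F1 and 19.8 to 20.4 in F2, with none called. Summed astrocyte markers spanned 893 to 977 CPM in WT, 1034 to 1373 in F1 and 1200 to 1513 in F2, with 1 of 7 genes called in F1 and 3 in F2. Microglia markers spanned 116 to 119 CPM in WT, 140 to 159 in F1 and 154 to 180 in F2, with 0 of 7 called in F1 and 4 in F2. Endothelial markers spanned 82.8 to 85.3, 92.6 to 112 and 113 to 116 CPM, with 1 of 6 called in each. Oligodendrocyte markers were lowest in WT 1, at 1079 CPM, against 1970 in WT 2, 2198 to 2951 in F1 and 1498 to 2848 in F2, with 3 of 10 called in F1 and 1 in F2. Pyramidal cell markers spanned 384 to 445 CPM in WT, 515 to 557 in F1 and 430 to 466 in F2, with 1 of 5 called in each. In F2 the members of this list went apart. Neurod6 was at 85.1 and 120 CPM, below WT (121 and 160). The other members lay above WT, with Nr3c2 at 205 and 210 CPM against 147 and 170. Interneuron markers spanned 594 to 657, 589 to 802 and 679 to 751 CPM, with 1 of 6 called in F1 and 2 in F2. All these calls against WT were increases. Over all genes tested, 12.3% were called in F1 and 12% in F2 (adjusted p under 0.01). Most of those calls were decreases, 1487 of 2144 in F1 and 1411 of 2084 in F2. The counts by marker list are given as a description. The part of these cell type markers in the differences below was not tested.

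All values below are CPM after TMM scaling, in the order replicate 1, replicate 2. Differences are log2 fold changes with their standard errors, and each adjusted p comes from the exact test of edgeR, adjusted by Benjamini and Hochberg's method over the 17421 genes, with calls made under 0.01.

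In F1, 1 of the 10 genes was called. Cerk, the ceramide kinase, rose by 1.49 times (95% interval 1.25 to 1.77). Over all genes tested, 12.3% were called, so 1 of 10 lies near the background. In F2, 1 of the 10 was called as well, and it was a different gene: Degs2, a dihydroceramide desaturase and hydroxylase, fell to 0.530 of its WT level (95% interval 0.370 to 0.759), against 12% of all genes called. The median log2 difference of the 10 genes was 0.09 in F1 and 0.07 in F2, beside 0.0094 and -0.00035 over all genes, and the median absolute difference was 0.30 and 0.22 beside 0.25 and 0.26. F1 and F2 were compared with the same WT libraries, so the 2 sets of values are not independent.

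At the threshold of 0.05, which the study's methods also name, 3 of the 10 were called in F1 (Cerk and Degs1 higher, Degs2 lower; background 20.8%) and 2 in F2 (Cerk higher, Degs2 lower; background 20.7%). By edgeR's quasi-likelihood test at 0.01, Cerk in F1 was the only call among the 10 (adjusted p = 0.00571; background 5.91%), and none was called in F2, where Degs2 had an adjusted p of 0.0265 (background 5.72%). Cerk and Degs2 were also on a list the study drew up from its own calls in these libraries, so their calls are not independent evidence of their direction.

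**Figure D1:**
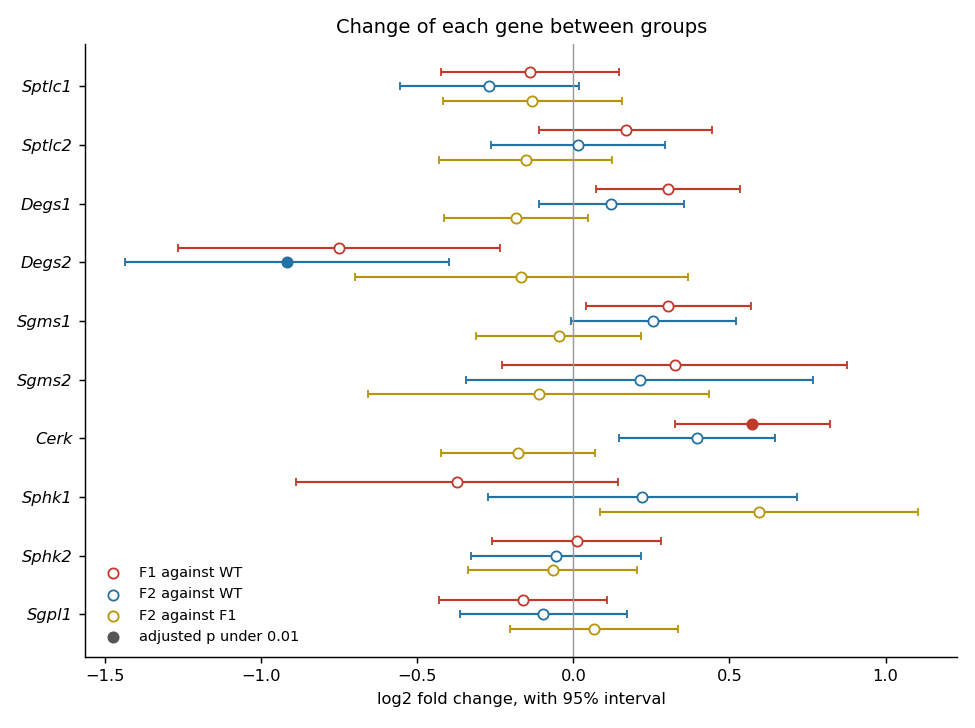
Log2 fold change of each of the 10 genes (horizontal axis) for F1 against WT, F2 against WT and F2 against F1, as points with 95% intervals (1.96 standard errors). Filled points have an adjusted p under 0.01 by edgeR's exact test: Cerk in F1 at 0.57 and Degs2 in F2 at -0.92. Among F1 and F2 against WT, the Degs2 points lie farthest from 0.

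The 2 called genes differ in the sequence before their start, which is shown to place them in the genome. RefSeq promoter windows on GRCm38.p6 matched all 10 genes, with 23 windows in all, because several genes have more than 1 start. The bases upstream of the annotated start are printed from 5′ to 3′ on the gene's own strand, which is the minus strand for both. Capitals mark GC boxes, searched as GGGCGG on both strands (CCGCCC where the motif lies on the opposite strand). For Cerk only the 132 bases that none of its RefSeq transcripts reaches are shown, at chr15:86186260-86186391, and for Degs2 the 250 bases at chr12:108702307-108702556.
Cerk: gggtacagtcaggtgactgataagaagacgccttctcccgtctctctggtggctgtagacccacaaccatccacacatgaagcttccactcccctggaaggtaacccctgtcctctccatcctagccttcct
Degs2: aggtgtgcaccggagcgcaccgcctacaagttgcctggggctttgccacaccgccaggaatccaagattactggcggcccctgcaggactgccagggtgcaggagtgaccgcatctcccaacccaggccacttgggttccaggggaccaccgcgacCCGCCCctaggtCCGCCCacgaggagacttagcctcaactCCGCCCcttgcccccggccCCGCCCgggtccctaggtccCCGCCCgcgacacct
The Degs2 stretch held 5 GC boxes and 18 CG dinucleotides, with a G and C content of 69.2%. The shorter Cerk stretch of 132 bases held 0 GC boxes and 2 CG dinucleotides, with a content of 55.3%. Its whole 250-base window held 0 GC boxes and 7 CG dinucleotides, with a content of 56.4%. At least 1 GC box occurred in 32.7% of all 32851 windows of 250 bases. Neither gene's window held a CCAAT box, a TATA box (searched as TATAAA) or an E box (searched as CACGTG) on either strand. These occurred in 33.8%, 12.4% and 6.02% of all windows. These are matches of letters, not measured binding sites.

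**Figure D2:**
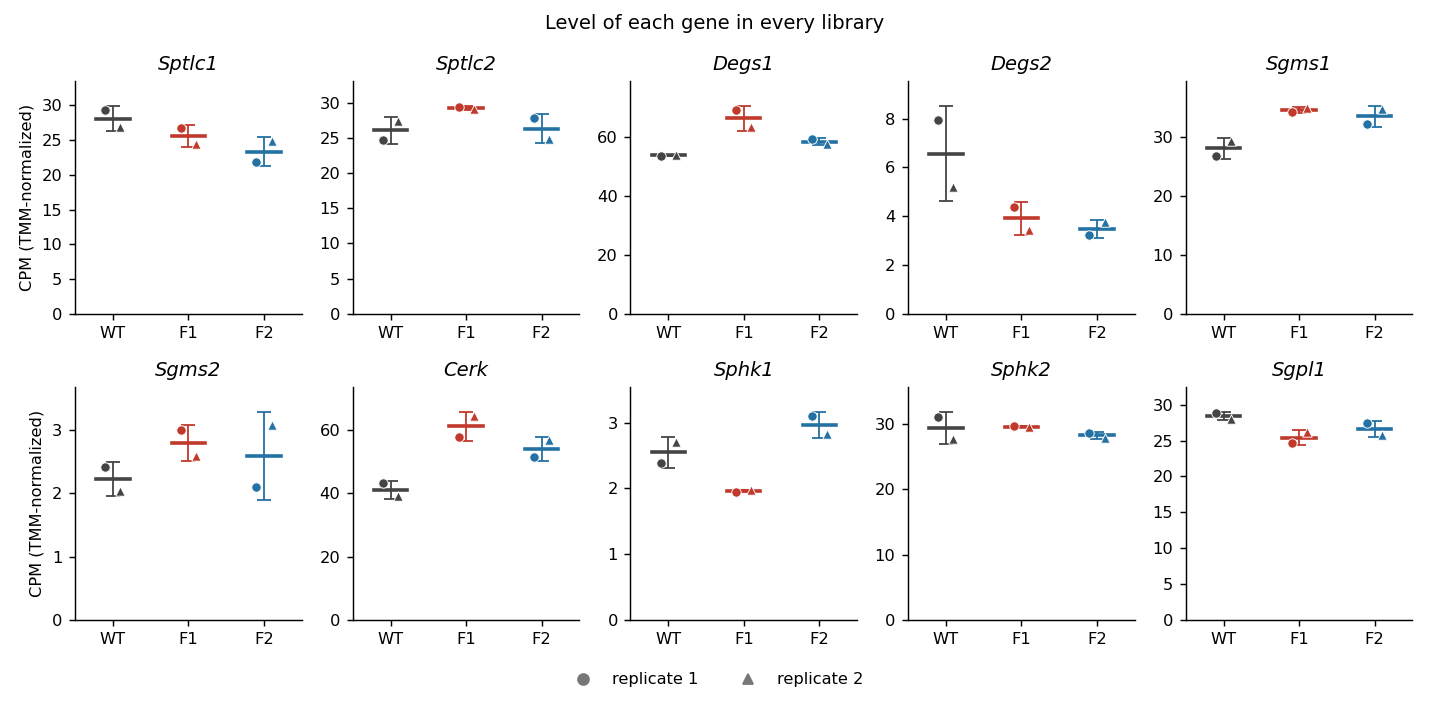
TMM-normalized CPM (vertical axes, each from 0) of the 10 genes in the 6 libraries, 1 panel a gene. Circles are replicate 1 and triangles replicate 2, with the mean as a line and 1 SD as bars (n = 2). Cerk is at 39.0 and 43.2 CPM in WT and at 51.3 or more in every F1 and F2 library, while Degs2 is above 5 CPM only in the WT libraries.

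Serine palmitoyltransferase, the first step, is a complex of Sptlc1 with a catalytic partner, here Sptlc2. Sptlc1 (mm9 chromosome 13, 53428085 to 53472734) was at 29.4 and 26.8 CPM in WT, 26.7 and 24.4 in F1, and 21.9 and 24.8 in F2. All 4 F1 and F2 libraries lay below both WT libraries, although the highest F1 library was almost level with the lower WT one. The log2 difference was -0.14 ± 0.15 (SE) in F1 (edgeR adjusted p = 0.557) and -0.27 ± 0.15 in F2 (edgeR adjusted p = 0.190), with the F2 interval running from 0.681 to 1.01 times the WT level. Sptlc2 (chromosome 12, 88646008 to 88729305) was at 24.7 and 27.5 CPM in WT, 29.5 and 29.1 in F1, and 27.8 and 24.9 in F2. Its F1 libraries lay above WT and its F2 libraries overlapped WT, and neither difference was called (log2 0.17 and 0.02, edgeR adjusted p = 0.436 and 0.971). The 95% intervals of the Sptlc2 level were 0.928 to 1.36 times WT in F1 and 0.834 to 1.23 times in F2, so a change of over 1.36 times lies outside both.

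The desaturases place the double bond that turns dihydroceramide into ceramide, and the Degs2 enzyme can instead add a hydroxyl group to give phytoceramide. Degs1 (chromosome 1, 184205903 to 184212935) was at 53.4 and 53.9 CPM in WT, 69.2 and 63.3 in F1, and 59.2 and 57.5 in F2. Every F1 and F2 library exceeded both WT libraries, and the F1 libraries exceeded those of F2. The difference from WT was 0.30 ± 0.12 (SE) on the log2 scale in F1 (edgeR adjusted p = 0.0488) and 0.12 ± 0.12 in F2 (edgeR adjusted p = 0.523), so neither was called at 0.01.

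Degs2 (chromosome 12, 109925002 to 109940516, minus strand) was at 7.94 and 5.17 CPM in WT, 4.39 and 3.43 in F1, and 3.22 and 3.75 in F2. Both WT libraries lay above every F1 and F2 library, and F1 and F2 overlapped each other. WT 1 stood well above WT 2, and the WT mean of 6.56 ± 1.96 CPM (SD, n = 2) had the widest relative spread of any of the 10 genes in WT. F1 averaged 3.91 ± 0.677 CPM and F2 3.48 ± 0.378 CPM. The log2 difference was -0.75 ± 0.26 (SE) in F1 (edgeR adjusted p = 0.0274) and -0.92 ± 0.27 in F2 (edgeR adjusted p = 0.00649). The call in F2 was lost without WT 1, where the difference was -0.57 (edgeR adjusted p = 0.272), without F2 1 (-0.80, edgeR adjusted p = 0.178) and without F2 2 (-1.03, edgeR adjusted p = 0.0516). Over the 6 libraries left out in turn, the adjusted p in F2 ran from 0.000917 to 0.272, and over the other alternatives from 0.000434 to 0.0324, with 0.0171 by DESeq2 and 0.0116 by edgeR with no filter on low counts. Without WT 2 the F1 difference was called too, at -1.01 (edgeR adjusted p = 0.00575), while without WT 1 it was -0.40 (edgeR adjusted p = 0.442). WT 1, the library with the most Degs2, had the lowest summed oligodendrocyte markers (1079 CPM). F2 1, the library with the least Degs2, had the next lowest sum (1498 CPM). The part of that cell type in the Degs2 level was not tested.

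The Degs2 locus is shared. Evl, an actin regulator gene named here for its position, lies on the opposite strand, and the ends of both genes overlap. Of the 3574 exon bases of Degs2, 485 (13.6%) lie in exons of Evl, at mm9 chromosome 12, 109926239 to 109926723, and a further 1237 (34.6%) lie in introns of Evl. The library kit does not mark strand and the strand setting of the counting is not given, so reads of the 2 genes there cannot be told apart. Evl itself was at 92.0 and 91.5 CPM in WT, 103 and 99.6 in F1, and 97.7 and 108 in F2, with log2 differences of 0.14 and 0.16 (edgeR adjusted p = 0.423 and 0.354). All Evl values in F1 and F2 lay above WT, as held for 3658 of the 17421 genes tested. The part of Evl reads in the Degs2 level was not tested. The lower Degs2 level also stood beside the lower share of reads outside exons in F1 and F2 given above. Between single libraries, WT 2 had the highest share (20.7%) and less Degs2 than WT 1 (17.7%), and F2 2 had a share of 17.4%. The part of this share in the Degs2 level was not tested.

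**Figure D3:**
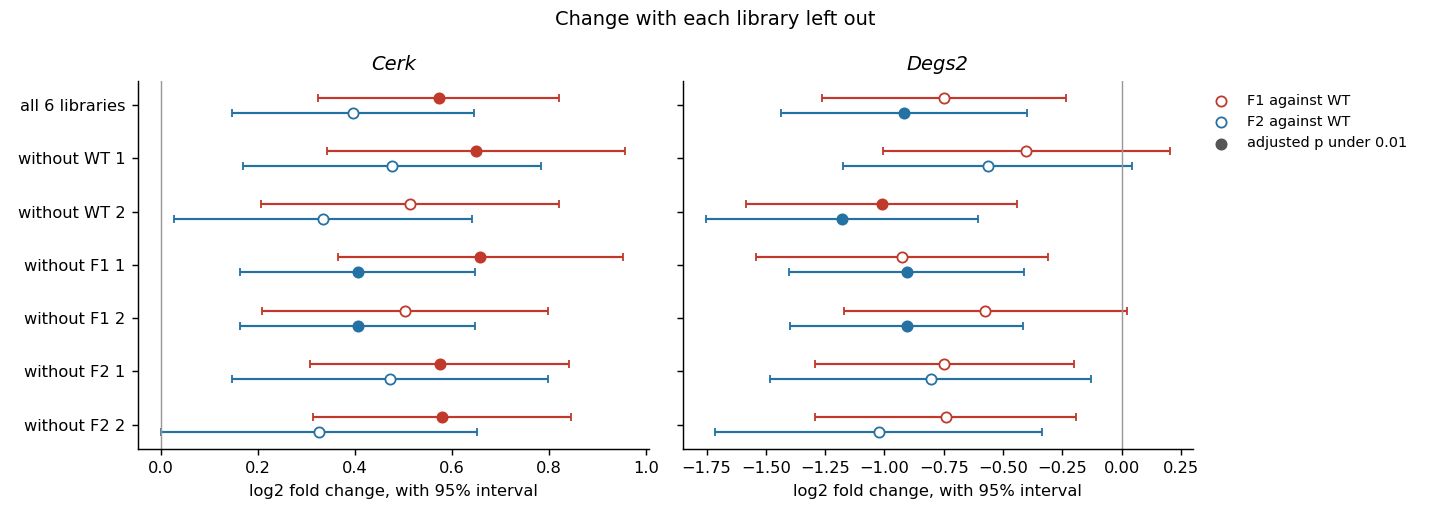
Log2 fold change (horizontal axis) of Cerk and Degs2 in F1 and F2 against WT, with all 6 libraries and with each library left out (vertical axis), as points with 95% intervals. Filled points have an adjusted p under 0.01 by edgeR's exact test. For Degs2 the F2 difference is -0.92 with all libraries and -0.57 without WT 1, and for Cerk the F1 difference stays between 0.50 and 0.66.

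The sphingomyelin synthases move a phosphocholine head group onto ceramide, Sgms1 in the Golgi and Sgms2 mainly at the plasma membrane. Sgms1 (chromosome 19, 32197217 to 32464204) was at 26.7 and 29.3 CPM in WT, 34.2 and 34.9 in F1, and 32.2 and 34.7 in F2. All 4 F1 and F2 libraries lay above WT. The log2 difference was 0.30 ± 0.14 (SE) in F1 (edgeR adjusted p = 0.0933) and 0.26 ± 0.14 in F2 (edgeR adjusted p = 0.174), and neither was called. Sgms2 (chromosome 3, 131021903 to 131047858) had only 56 to 91 reads a library, at 2.41 and 2.04 CPM in WT, 3.0 and 2.59 in F1, and 2.09 and 3.08 in F2. The F2 libraries differed from each other by more than the groups did. Its intervals, 0.854 to 1.84 times WT in F1 and 0.788 to 1.70 times in F2, leave room for differences in either direction.

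Cerk (chromosome 15, 85969558 to 86016571, minus strand) makes ceramide 1-phosphate. It was at 43.2 and 39.0 CPM in WT, 57.9 and 64.3 in F1, and 51.3 and 56.8 in F2. Neither F1 nor F2 overlapped WT, with means of 41.1 ± 2.93 CPM (SD, n = 2) in WT, 61.1 ± 4.54 in F1 and 54.1 ± 3.87 in F2. The log2 difference was 0.57 ± 0.13 (SE) in F1 (edgeR adjusted p = 0.000138) and 0.40 ± 0.13 in F2 (edgeR adjusted p = 0.0144). In F1, leaving out 1 library gave 0.50 to 0.66, and the call was lost without WT 2 (0.51, edgeR adjusted p = 0.0153) and without F1 2 (0.50, edgeR adjusted p = 0.0110). The adjusted p in F1 ran from 0.000164 to 0.0153 over the libraries left out and from 6.08e-05 to 0.0114 over the other alternatives. In F2, leaving out 1 library gave differences of 0.33 to 0.48. Over the other alternatives the adjusted p in F2, by edgeR or DESeq2, ran from 0.00811 to 0.0586. The F2 difference was 0.41 without F1 1 and 0.41 without F1 2. The F1 libraries are not part of that comparison, but they enter the filter, the scaling and the estimate of the spread. The higher Cerk level stood beside higher summed astrocyte, microglia and endothelial markers in F1 and F2. In F1 it also stood beside higher summed pyramidal cell and oligodendrocyte markers. In F2 it also stood beside higher summed granule cell, interneuron and choroid plexus markers. Members of these lists went apart in F2. Kl made up most of the choroid plexus sum, and Ttr lay below WT in both F2 libraries. C1ql2 and Dsp of the granule cell list and Pvalb and Sst of the interneuron list overlapped WT. The other members of these lists lay above WT in both F2 libraries. The part of these markers in the Cerk level was not tested.

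The sphingosine kinases make sphingosine 1-phosphate, Sphk1 mainly in the cytoplasm and at the plasma membrane and Sphk2 also in the nucleus. Sphk1 (chromosome 11, 116392239 to 116397988) had 59 to 83 reads a library. It was at 2.38 and 2.71 CPM in WT, 1.95 and 1.98 in F1, and 3.10 and 2.82 in F2. Both F1 libraries lay below WT and both F2 libraries above it, an arrangement of opposite sides that 1.66% of all genes tested also had. Neither difference from WT was called (log2 -0.37 ± 0.26 (SE) and 0.22 ± 0.25, edgeR adjusted p = 0.339 and 0.615). The exact Poisson 95% interval of WT 1 was 1.89 to 2.96 CPM and that of F1 2 was 1.51 to 2.54 CPM, so these libraries overlapped within counting error, the only error such intervals cover.

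Sphk2 (chromosome 7, 52964837 to 52973372, minus strand) was at 31.2 and 27.7 CPM in WT, 29.7 and 29.6 in F1, and 28.7 and 27.9 in F2. The groups overlapped, and the log2 differences were 0.01 and -0.06 (edgeR adjusted p = 0.978 and 0.839), with intervals of 0.835 to 1.22 and 0.797 to 1.16 times WT. The sign in F1 turned when only total counts were used for scaling, to -0.014. Of its 4159 exon bases, 491 (11.8%) overlap Dbp and 373 (8.97%) overlap Rpl18, both on the opposite strand and named here for that overlap. Neither neighbour was called (Dbp log2 -0.11 and 0.11, Rpl18 -0.05 and -0.02).

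Sgpl1, the lyase that cleaves sphingosine 1-phosphate for good, lies on chromosome 10 from 60561390 to 60610451. It was at 28.8 and 28 CPM in WT, 24.6 and 26.2 in F1, and 27.4 and 25.8 in F2. All 4 F1 and F2 libraries lay below WT by small margins. The log2 differences of -0.16 ± 0.14 (SE) in F1 and -0.10 ± 0.14 in F2 were not called (edgeR adjusted p = 0.440 and 0.685).

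In all, 6 of the 10 genes had every F1 and F2 library on the same side of WT: Degs1, Sgms1 and Cerk above it, and Sptlc1, Degs2 and Sgpl1 below it. Over all genes tested this held for 44.7%, so the 6 of 10 are given as a description.

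F2 was next compared with F1. None of the 10 genes was called by edgeR's exact test, against 0.74% of all genes, and 1 of them, Sphk1, had an unadjusted p under 0.05, while DESeq2 gave 0 of 10 under that unadjusted limit. Over all genes, 8.64% had an unadjusted p under 0.05 by edgeR's exact test, so 1 of 10 lies near that share. Sphk1 was 1.51 times higher in F2 than in F1 (95% interval 1.06 to 2.15, log2 0.59 ± 0.26 (SE), edgeR adjusted p = 0.443). Cerk had a log2 difference of -0.18 ± 0.13 (SE, interval 0.745 to 1.05 times, edgeR adjusted p = 0.826). Degs2 had -0.17 ± 0.27 (interval 0.616 to 1.29 times, edgeR adjusted p = 1). Both intervals include no difference, so the calls of Cerk in F1 alone and of Degs2 in F2 alone at 0.01 do not show that F1 and F2 differ.

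Per length, the 10 genes spanned a wide range of levels. Counts were divided by the summed length of all annotated exons of a gene, which is longer than any 1 transcript where a gene has several. Averaged over the 6 libraries, Degs1 was highest at 22.9 CPM per kb, followed by Cerk at 10.8, Sptlc1 at 9.79, Sphk2 at 7.0, Sgpl1 at 4.36, Sptlc2 at 3.36, Sgms1 at 3.11, Degs2 at 1.30, Sphk1 at 0.522 and Sgms2 at 0.432. The ranges over libraries overlapped for Cerk and Sptlc1, for Sptlc2 and Sgms1, and for Sphk1 and Sgms2, and the other neighbours in this order were apart in every library. The order turned with the group for some of these: Sptlc1 was above Cerk in WT (10.7 against 8.54 CPM per kb) and below it in F1 (9.75 against 12.7) and F2 (8.90 against 11.2), and Sphk1 was above Sgms2 in WT and F2 and below it in F1 (0.411 against 0.476). The desaturase, synthase and kinase steps were thus each represented mainly by 1 gene, Degs1, Sgms1 and Sphk2.

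Shares within a pair of genes do not depend on the scaling between libraries. Degs2 took 12.9% and 8.77% of the reads of both desaturase genes in WT, 5.97% and 5.15% in F1, and 5.15% and 6.12% in F2. All F1 and F2 shares lay below WT, and the log2 ratio of Degs2 to Degs1 was 1.03 lower in F1 and 1.01 lower in F2 than in WT, with an SD of 0.44 between the WT libraries. Sphk1 took 7.11% and 8.92% of the sphingosine kinase reads in WT, 6.15% and 6.26% in F1, and 9.75% and 9.18% in F2. Sgms2 took 6.11% to 8.28% of the sphingomyelin synthase reads, with all groups overlapping. Sptlc2 took 45.7% and 50.6% of the reads of Sptlc1 and Sptlc2 in WT, 52.5% and 54.4% in F1, and 56.0% and 50.1% in F2, so F1 lay above WT and F2 overlapped it. These shares are of reads, not corrected for length, and were not tested.

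**Figure D4:**
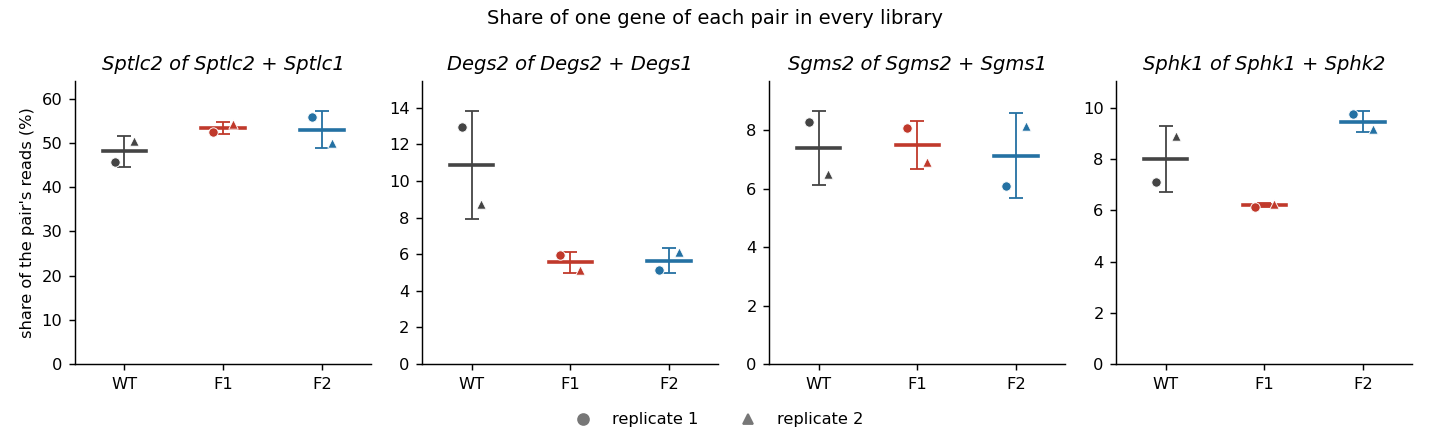
Share of the pair's reads (vertical axes, percent, each from 0) that came from Sptlc2, Degs2, Sgms2 and Sphk1 in each library, with the mean as a line and 1 SD as bars (n = 2). The Degs2 share is 8.77% or more in WT and 6.12% or less in every F1 and F2 library, while the Sgms2 shares of the groups overlap.

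The other genes of the pathway were taken from 4 lists with 34 genes in the files, of which 30 were tested. In F1, 1 rose and 2 fell, and in F2 again 1 rose and 2 fell, or 3 of 30 in each, beside the 12.3% and 12% of all genes. Their median log2 difference was 0.11 in F1 and 0.12 in F2. In the 13 partners of de novo synthesis (subunits and regulators of serine palmitoyltransferase, the reductase and the ceramide synthases), 11 were tested and 1 fell in each comparison, Lass4. Lass4 is the ceramide synthase gene now named Cers4. It was at 71.6 and 53.2 CPM in WT, 44.3 and 43.2 in F1, and 39.5 and 42.3 in F2. WT 1 was again the highest library, and all F1 and F2 libraries lay below WT. The log2 differences were -0.51 ± 0.15 (SE) in F1 and -0.61 ± 0.15 in F2 (edgeR adjusted p = 0.00490 and 0.000603), and without WT 1 they were -0.28 and -0.37 and not called (edgeR adjusted p = 0.238 and 0.102). The F1 call was also lost without F1 1, F1 2, F2 1 or F2 2 (-0.52, -0.49, -0.51 and -0.51, edgeR adjusted p = 0.0301, 0.0666, 0.0116 and 0.0120), and the F2 call without F2 1 or F2 2 (-0.56 and -0.65, edgeR adjusted p = 0.0591 and 0.0152). Sptlc3, an alternative catalytic subunit, had 0 to 2 reads in every library and was not tested.

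Of the 6 genes of ceramide transfer and use, 1 rose in F1 and 0 rose or fell in F2 (exact test, edgeR). At an adjusted p under 0.05 the counts were 3 and 2 of 6, all higher, beside 20.8% and 20.7% of all genes. Fa2h, the fatty acid 2-hydroxylase of myelin lipids, was at 5.29 and 8.62 CPM in WT, 14.8 and 13.9 in F1, and 8.75 and 17.3 in F2. Its 3 lowest libraries, WT 1, WT 2 and F2 1, were also the 3 lowest for the summed oligodendrocyte markers, and the part of that cell type was not tested. The log2 difference was 1.05 ± 0.29 (SE) in F1 and 0.91 ± 0.29 in F2 (edgeR adjusted p = 0.00451 and 0.0165). Without WT 1 the F1 difference was 0.74 (edgeR adjusted p = 0.160), and without F1 1 and F1 2 it was 1.02 and 1.10 (edgeR adjusted p = 0.0269 and 0.0242). In F2 the difference ranged from 0.34 without F2 2 (edgeR adjusted p = 0.520) and 0.60 without WT 1 (edgeR adjusted p = 0.296) upwards, and it was called without WT 2 (1.31, edgeR adjusted p = 0.00433) or F2 1 (1.32, edgeR adjusted p = 0.000145). None of the 4 tested ceramidases of 5 listed was called. At an adjusted p under 0.05, 1 of the 4 was higher in F1 and 0 were called in F2.

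Of the 10 genes of sphingosine phosphate breakdown, export and reception, 9 were tested. Mfsd2b, a sphingosine 1-phosphate exporter known from red blood cells and platelets, fell in both, from 2.32 and 2.08 CPM in WT to 0.825 and 0.745 in F1 and 0.935 and 0.780 in F2. The F1 and F2 libraries were all below WT by a wide margin for so low a gene, with log2 differences of -1.49 ± 0.33 (SE) and -1.36 ± 0.32 (edgeR adjusted p = 7.62e-05 and 0.000479). The F1 call was lost without WT 1 (-1.40, edgeR adjusted p = 0.0126) and the F2 call without WT 1 (-1.27, edgeR adjusted p = 0.0320), F2 1 (-1.49, edgeR adjusted p = 0.0245) or F2 2 (-1.23, edgeR adjusted p = 0.0526). S1pr1, a receptor for sphingosine 1-phosphate, rose in F2, from 79.1 and 89.0 CPM in WT to 116 and 110, and was at 101 and 105 in F1. Its log2 difference was 0.43 ± 0.12 (SE) in F2 (edgeR adjusted p = 0.00391) and 0.29 ± 0.12 in F1 (edgeR adjusted p = 0.0630). Astrocytes and endothelial cells also express this receptor, and their summed markers were higher in F2 as given above. The F2 call was lost without WT 1 (0.35, edgeR adjusted p = 0.117), F2 1 (0.40, edgeR adjusted p = 0.103) or F2 2 (0.47, edgeR adjusted p = 0.0285). By edgeR's quasi-likelihood test at 0.01, Mfsd2b in F1 was the only one of these pathway calls left.

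**Figure D5:**
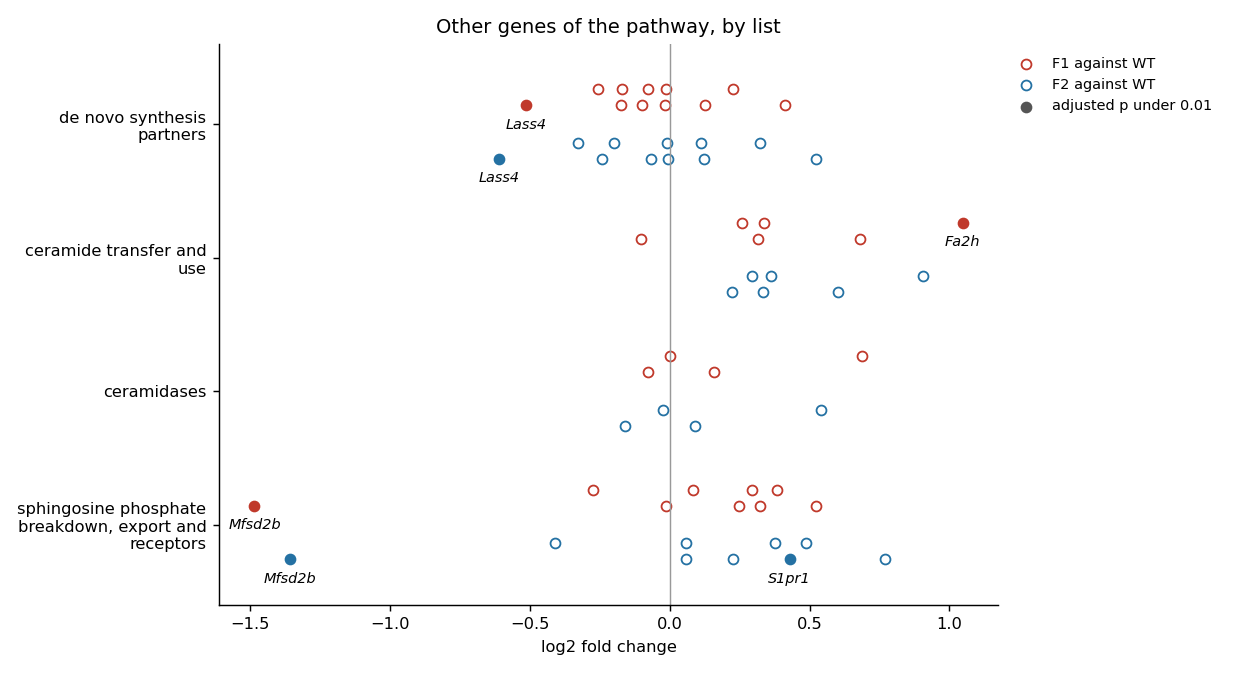
Log2 fold change (horizontal axis) of the 30 tested pathway genes outside the 10, by list (rows), for F1 and F2 against WT, with 1 point a gene. Filled, named points have an adjusted p under 0.01 by edgeR's exact test: Lass4 and Mfsd2b below 0 in both, Fa2h above 0 in F1 and S1pr1 above 0 in F2.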

How the data were processed

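RNA-Seq was performed on 6 libraries of ventral dentate granule cell layer. The authors made the deposited counts from single-end 50-base reads with TopHat against mm9, counted per gene with HTSeq in intersection-strict mode. The labels list TopHat2 2.0.2 where the methods give another version. The methylation libraries of the series were not analysed here. Rows that name no gene (reads outside exons, ambiguous, not unique) were left out of library sizes, and their shares are given above. Counts were scaled by TMM and tested with edgeR 4.0.16 (R 4.3.3): exact test, filterByExpr, tagwise dispersion over all 3 groups (common dispersion 0.0113), Benjamini-Hochberg adjustment over 17421 genes, threshold 0.01. DESeq2 1.42.0, other edgeR tests, scalings, filters, thresholds and libraries left out were alternatives, and 1 more was added after seeing the data. The code was tested on simulated data. The 10 genes, the pathway lists and the marker lists were chosen with earlier results of these data known; all 10 were named, and pathway genes where called or at 3 reads or fewer in every library. Evl, Dbp and Rpl18 were added by position after the values were seen. Exon lengths and mm9 positions came from GENCODE M1.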

Additional observations from a re-analysis of the deposited data

Results flagged for a closer look

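Sphk1 was the only one of the 10 genes whose F1 and F2 libraries lay on opposite sides of WT: both F1 libraries were below WT and both F2 libraries above it. The difference between F2 and F1 was 0.59 ± 0.26 (SE) on the log2 scale, with an adjusted p of 0.443 by edgeR's exact test, so the test of the difference itself did not pass. The counts behind it were 59 and 61 reads in F1, 81 and 77 in WT, and 83 and 76 in F2. Groups of 2 libraries are too small for a test of single outlying libraries, so none was run.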

How the results depend on the processing

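With 2 libraries a group, each value rests on few samples, and where a library was left out the lone library of its group was assumed to vary like the others. Libraries left out gave 0 to 1 of the 10 genes called in F1, 0 to 2 in F2, and 0 to 5 of the pathway genes in each. No gene of the 10 was called between F2 and F1 under any alternative run. At 0.05, 3 and 2 of the 10 and 7 and 5 of the pathway genes were called in F1 and F2, beside 20.8% and 20.7% of all genes. Without a block, edgeR's quasi-likelihood test called 0 of the 10 in F2, and 1 and 0 pathway genes, beside 5.91% and 5.72%. DESeq2 gave 0 of the 10 in F2 (9.44% of all genes) and 1 pathway gene in F1 (9.46%). No filter on low counts gave 0 of the 10 in F2, beside 6.77%. Dispersion from 2 groups and upper quartile scaling each gave 2 in F2, beside 14.8% and 12.3%.

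Differences between replicates were not positively correlated between groups (-0.03 for WT and F1, -0.08 for WT and F2, -0.18 for F1 and F2). With 1 difference a group, these correlations cannot tell whether libraries shared a batch or litter. With the replicate number as a block, the quasi-likelihood test gave 0 of the 10 in F1 and 0 in F2, and 1 and 0 pathway genes; the likelihood-ratio test with the block gave 1 and 1 of the 10. With the F2 numbers crossed, an alternative added after seeing the data, it gave 2 and 2, beside 15.4% and 15.8% of all genes.

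Directions turned for values that were not called. Sphk2 in F1 turned to -0.014 with total counts and -0.0061 with at least 1 CPM in 2 libraries, and ranged from -0.061 to 0.102 over libraries left out. Over libraries left out, Sptlc2 in F2 ranged from -0.061 to 0.101, Sgms2 in F2 from -0.087 to 0.469, and Sphk2 in F2 from -0.128 to 0.039. Between F2 and F1 the ranges were -0.332 to 0.018 for Degs2, -0.104 to 0.0094 for Sgms1, -0.418 to 0.143 for Sgms2, -0.716 to 0.273 for Fa2h and -0.0060 to 0.250 for Mfsd2b. The cause was not tested. Over all genes, calls in F1 and F2 numbered 2144 and 2084, against 1029 and 997 by the quasi-likelihood test, 848 and 758 with its block, and 3623 and 3606 at 0.05; libraries left out gave 988 to 2043 and 703 to 2585.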
